A study of Mus musculus with 15 samples.

Results

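The 10 genes described here are those by which mouse macrophages are usually recognised and their activation state graded: 4 identity genes (Adgre1, Csf1r, Cd68 and Siglec1), 1 gene of classical activation (Nos2) and 5 of alternative activation (Arg1, Mrc1, Cd163, Chil3 and Retnla). They are named by textbook use, and were picked with earlier results of these data known. All 10 were among the 15494 genes that passed the count filter, out of 32543 listed. RNA came from 15 whole subcutaneous tumors grown from WEHI-164, a mouse fibrosarcoma line, in wild-type female BALB/c mice. There were 3 untreated tumors (day 0) and 3 each for days 1, 3, 5 and 7, counted from the first dose. Treated tumors received daily intratumoral poly(I:C), a synthetic double-stranded RNA sensed by Toll-like receptor 3. The labels give 1 µg in 25 µL per injection with 6 doses planned. With daily dosing, the day 7 tumors were taken after the last planned dose. The supplement of the study gives a higher dose for such a course, so the dose is uncertain. The day 0 samples are labelled untreated and none of the 15 is labelled as injected with vehicle, although legends of the study speak of a vehicle arm. With these labels, injection and poly(I:C) cannot be told apart. Neither can be told apart from time of harvest, since all untreated tumors are from day 0.

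Macrophages depend on signalling through the receptor encoded by Csf1r, whose ligands are CSF1 and IL-34. Interferon gamma and microbial products drive a classical state in which the enzyme NOS2 makes nitric oxide from arginine, whereas IL-4 and IL-13 acting through STAT6 drive an alternative state in which arginase 1 consumes the same arginine, and in which the mannose receptor (Mrc1) and the secreted proteins Chil3 (Ym1) and RELMα (Retnla) are made. CD163, the scavenger receptor for haptoglobin-haemoglobin complexes, is typical of resident macrophages.

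Libraries held 23713090 to 31913106 estimated counts, at which 3 counts, taken as the floor of detection, equal 0.0972 to 0.125 CPM, the count scaled to library size in which levels are given. Day 3 replicate 1 stood apart from the other 14 tumors: its mean correlation with the others was 0.884, against 0.956 or more for each other tumor. That tumor also had the highest summed levels of 9 skeletal muscle markers (3189 CPM, against 176 or less elsewhere) and 8 adipocyte markers (387 CPM, against 67.1 or less), and values without it are given below where it matters. Replicates are taken as separate mice, since legends of the study count mice in each group. Because whole tumors were sequenced, more macrophages and more RNA per macrophage cannot be told apart. RNA of monocytes, which the study reports as infiltrating treated tumors, is not separated either.

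The identity genes had their highest means on day 3, at 2.40 to 4.42 times the untreated level in the fit. Without day 3 replicate 1 their log2 fold changes on day 3 were 0.49 (Csf1r) to 1.71 (Siglec1). On day 7 the identity genes overlapped the untreated tumors. No member passed an adjusted p of 0.05 in edgeR's quasi-likelihood test with all 15 tumors in any comparison. The 5 alternative activation genes differed from each other: Mrc1 and Cd163 lay below the untreated tumors on days 1 and 5, Arg1 overlapped them on every day, and Chil3 and Retnla were highest in different tumors.

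**Figure D1:**
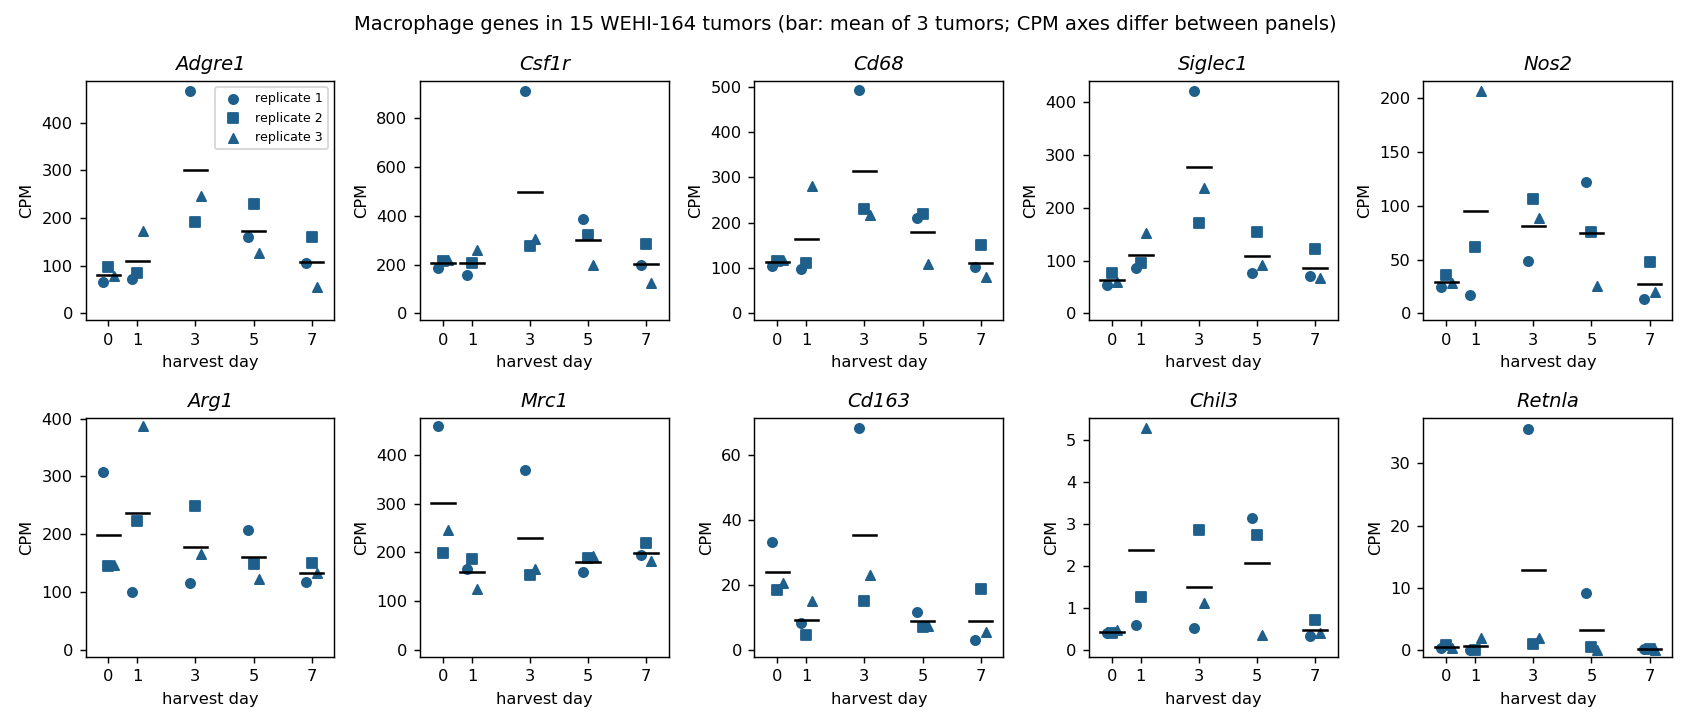
Level in CPM (vertical axes, from 0 and scaled separately for each gene) of the 10 macrophage genes in each of 15 tumors against harvest day, with 1 symbol for each replicate number and a bar at the mean of 3 tumors. The identity genes in the upper row have their highest means on day 3 and their highest values in day 3 replicate 1, whereas Nos2, Arg1 and Chil3 are highest in day 1 replicate 3.

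Adgre1 encodes F4/80, the adhesion receptor most used to stain mouse macrophages (17:57358691-57483527 of GRCm38, plus strand). It measured 65.2, 96.8 and 78.8 CPM in the untreated tumors, 72.5, 84.1 and 173 on day 1, 467, 192 and 247 on day 3, 160, 229 and 128 on day 5, and 105, 160 and 55.8 on day 7. The tumors of days 3 and 5 exceeded every untreated tumor, and those of day 7 overlapped them. The fitted log2 fold change was 1.91 (SE 0.45, n = 3 a day) on day 3, or 3.76-fold, with an adjusted p of 0.115 by edgeR. It was 1.45 without day 3 replicate 1. On day 5 it was 1.10 (SE 0.44, adjusted p = 0.859, edgeR).

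Csf1r, the receptor that keeps macrophages alive, was already well expressed at 185, 216 and 220 CPM before treatment. It measured 159, 206 and 258 CPM on day 1, 912, 274 and 306 on day 3, 385, 321 and 199 on day 5, and 196, 283 and 124 on day 7. Every day 3 tumor exceeded every untreated one, and days 1, 5 and 7 overlapped them. The log2 fold change on day 3 was 1.26 (SE 0.44, adjusted p = 0.117, edgeR) and was 0.49 without day 3 replicate 1.

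Cd68 encodes a glycoprotein of late endosomes and lysosomes (11:69664213-69666153, minus strand). It gave 105, 115 and 118 CPM in untreated tumors, 97.8, 112 and 282 on day 1, 492, 230 and 217 on day 3, 211, 219 and 110 on day 5, and 102, 151 and 80.7 on day 7. The untreated values were tight (112 ± 6.56 CPM, SD, n = 3). Day 3 was higher by 1.48 on the log2 scale (SE 0.44, adjusted p = 0.115, edgeR), and by 1.00 without day 3 replicate 1.

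Siglec1 (CD169; 2:131069220-131086765, minus strand) is a sialic acid receptor of macrophages that is also induced by type I interferon. Its level was 53.0, 76.5 and 58.7 CPM untreated, 85.2, 96.3 and 153 on day 1, 422, 172 and 238 on day 3, 76.7, 155 and 92.1 on day 5, and 71.9, 121 and 66.4 on day 7. It was the only member whose 9 tumors of days 1, 3 and 5 all lay above the 3 untreated tumors. No share over all genes was computed for these 3 days together. On day 5 the margin was narrow, at 76.7 CPM in replicate 1 against 76.5 in untreated replicate 2. Siglec1 also had the smallest p of the members on day 3 (unadjusted p of 1.0e-04, adjusted p of 0.115, edgeR). Its log2 fold change was 2.14 (SE 0.38), or 4.42-fold, and 1.71 without day 3 replicate 1.

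From day 3 to day 7 all 4 identity genes were lower, by log2 differences between -1.31 (Csf1r) and -1.68 (Siglec1). By day 7 the planned dosing had ended, and the part of this in the differences was not tested. For Adgre1, Cd68 and Siglec1 the 3 tumors of day 7 were all below the 3 of day 3. The adjusted p was 0.0832 for those 3 genes and 0.0852 for Csf1r (edgeR). The difference for Csf1r was -0.52 without day 3 replicate 1. Against the untreated tumors, day 7 differed by -0.043 (Csf1r) to 0.46 (Siglec1) on the log2 scale, with day 7 overlapping day 0 for each.

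Over the 10 members, edgeR called 0 on day 3 at an adjusted p of 0.05, as it did for every gene tested (0% of 15494). At an unadjusted p under 0.05, 5 members were higher on day 3, against 18.3% of all genes, and 7 had 3 treated tumors above all 3 untreated ones, against 19.4% of all genes. The median log2 fold change of the members on day 3 was 1.47, beside -0.02 for all genes, and was 1.22 without day 3 replicate 1. DESeq2 called the 4 identity genes on day 3 (12.9% of all genes called) and 6 members from day 3 to day 7, namely those 4 with Cd163 and Retnla (20.9% of all genes). With day 3 replicate 1 left out of DESeq2, Siglec1 was the only member called in either comparison (0.566% of all genes in each) and in the joint test of all days (1.14%), with an adjusted p of 0.00116 on day 3. For Retnla and Chil3 that fit gave no adjusted p in these day 3 comparisons, nor for Cd163 from day 3 to day 7. It called 0 members on day 1 (0.462% of all genes), day 5 (0.117%) and day 7 (0.104%).

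For the other comparisons the counts were as follows. An unadjusted edgeR p under 0.05 was reached by 4 members on day 1 (Siglec1, Nos2 and Chil3 higher and Mrc1 lower, with 2.18% of all genes higher and 0.981% lower, 3.16% in all), by 2 on day 5 (Adgre1 and Chil3 higher, with 1.41% of all genes higher, 3.39% lower and 4.8% in all) and by 0 on day 7 (2.07%). From day 3 to day 7 there were 6 members, all lower (22.6% of all genes were lower at that p and 35.5% passed it in either direction). In the joint test of days 1, 3, 5 and 7 there were 6 (16.2% of all genes). By DESeq2, 0 members passed an adjusted p of 0.05 on day 1 (0.258% of all genes), day 5 (0.0645%) or day 7 (0.0323%), and 4 passed in the joint test (7.65%), namely Adgre1, Cd68, Siglec1 and Cd163.

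Separation of the tumors gave a like picture. On day 1, Siglec1 and Chil3 lay wholly above the untreated tumors (5.76% of all genes did) and Mrc1 and Cd163 wholly below (6.61%). On day 3, 0 members lay wholly below (19% of all genes). On day 5, Adgre1 and, by a narrow margin, Siglec1 lay above (6.89%) and Mrc1 and Cd163 below (10.8%). On day 7, 0 lay above (5.02%) and Retnla alone below (6.26%). Between days 3 and 7, 5 members were wholly lower on day 7 (18.4% of all genes), namely Adgre1, Cd68, Siglec1, Nos2 and Retnla, and 0 wholly higher (14.6%).

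**Figure D2:**
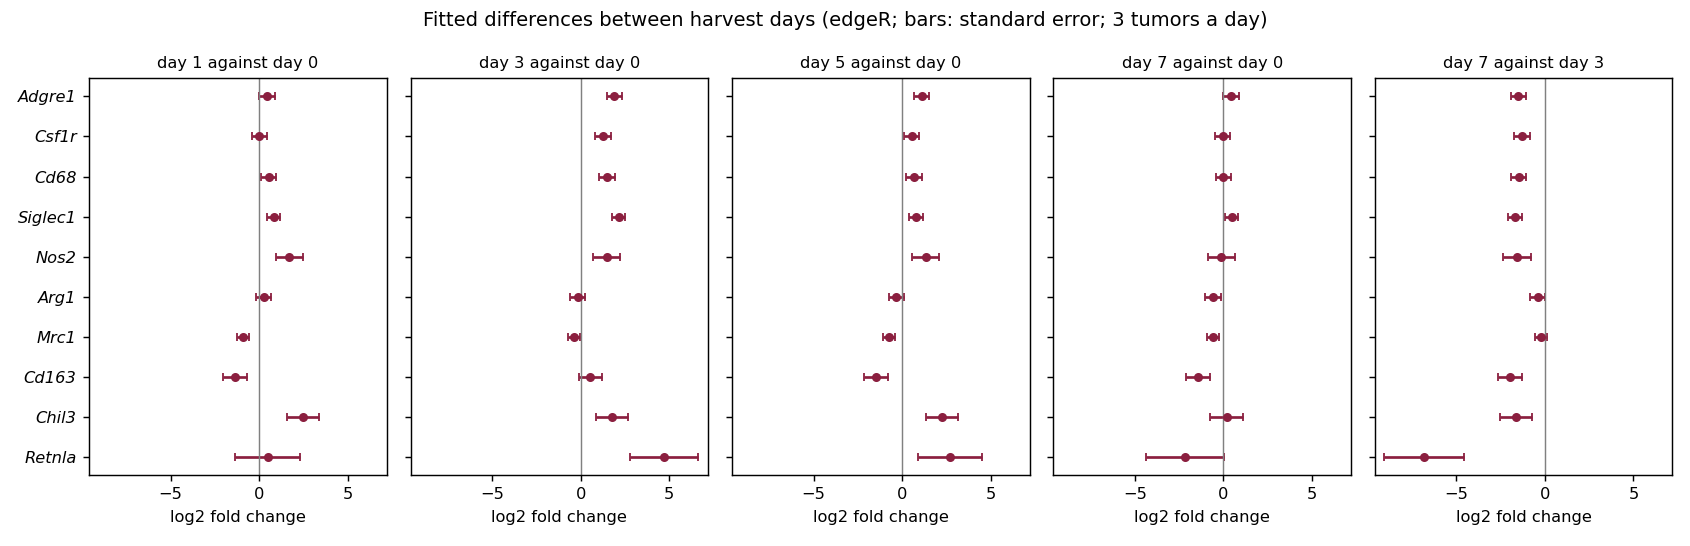
Fitted log2 fold change (horizontal axes) of each member in 5 comparisons of harvest days, with bars of 1 standard error from edgeR and 3 tumors a day. On day 3 the identity genes lie between 1.26 and 2.14 while Arg1 and Mrc1 lie at -0.17 and -0.39, and the error of Retnla is the widest.

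Nos2 (11:78920787-78960254, plus strand), the inducible nitric oxide synthase, followed another course. It stood at 24.3, 35.7 and 28.1 CPM in untreated tumors, 17.3, 61.8 and 207 on day 1, 48.4, 106 and 88.3 on day 3, 122, 75.8 and 25.6 on day 5, and 13.4, 47.9 and 20.0 on day 7. Day 1 held both a value below every untreated tumor and the highest of all 15, and only on day 3 were all 3 tumors above the untreated ones. The log2 fold change was 1.70 (SE 0.77, adjusted p = 1.0, edgeR) on day 1, which became 0.43 without day 1 replicate 3. On day 3 it was 1.46 (SE 0.77, adjusted p = 0.203, edgeR). Unlike the identity genes, Nos2 was not at its highest in day 3 replicate 1, which had the lowest Nos2 of its day.

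Arg1 (10:24915221-24927484, minus strand) encodes arginase 1, which turns arginine into ornithine and urea. Its levels were 307, 145 and 147 CPM untreated, 100, 223 and 387 on day 1, 117, 248 and 167 on day 3, 208, 149 and 122 on day 5, and 118, 150 and 132 on day 7. Treated and untreated tumors overlapped on every day. The log2 fold changes ran from -0.58 (day 7, adjusted p = 1.0) to 0.25 (day 1, adjusted p = 1.0), with an SE of 0.44 in each (edgeR).

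Mrc1 (2:14229392-14332057, plus strand), the mannose receptor CD206, was at 459, 198 and 245 CPM before treatment. It measured 166, 186 and 126 CPM on day 1, 368, 154 and 167 on day 3, 159, 189 and 192 on day 5, and 195, 220 and 182 on day 7. All tumors of days 1 and 5 were below every untreated tumor, and the spread between the untreated tumors (301 ± 139 CPM, SD, n = 3) was wide. The log2 fold change was -0.92 (SE 0.34, adjusted p = 1.0, edgeR) on day 1 and -0.39 (SE 0.34, adjusted p = 0.411, edgeR) on day 3. Without untreated replicate 1 these became -0.48 and 0.053.

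Cd163 (6:124304656-124330527, plus strand) gave 33.3, 18.4 and 20.8 CPM untreated, 8.42, 4.63 and 15.04 on day 1, 68.2, 15.2 and 23.0 on day 3, 11.8, 7.22 and 7.47 on day 5, and 3.01, 18.7 and 5.43 on day 7. Days 1 and 5 were wholly below the untreated range, day 7 overlapped it through replicate 2, and day 3 spanned it. The log2 fold change was 0.55 on day 3 and lay between -1.45 and -1.37 on the other 3 treated days (SE 0.66 to 0.68, adjusted p from 0.550 to 1.0, edgeR). Without day 7 replicate 2 the day 7 value was -2.52. The day 3 value turned to -0.34 without day 3 replicate 1, the tumor with the most muscle and adipocyte marker RNA. Their part in the result was not tested.

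Chil3 and Retnla, both secreted products of IL-4-stimulated macrophages, were the scarcest members. Neither is particular to macrophages: neutrophils also make Chil3, and adipose tissue makes Retnla. The sequences around their transcription starts are shown with those of Mrc1 and Cd163, so that the letters can be read beside levels that diverged among genes assigned to the same state. Each runs 5′ to 3′ on the strand of its gene, from 250 bases before the start to 50 after it, from RefSeq on GRCm38.p6. The regions are chr16:48842359-48842658 (plus strand) for Retnla, chr3:106167515-106167814 (minus strand) for Chil3, chr2:14229164-14229463 (plus strand) for Mrc1 and chr6:124304401-124304700 (plus strand) for Cd163. Capitals mark matches to the motifs given after the sequences.
Retnla: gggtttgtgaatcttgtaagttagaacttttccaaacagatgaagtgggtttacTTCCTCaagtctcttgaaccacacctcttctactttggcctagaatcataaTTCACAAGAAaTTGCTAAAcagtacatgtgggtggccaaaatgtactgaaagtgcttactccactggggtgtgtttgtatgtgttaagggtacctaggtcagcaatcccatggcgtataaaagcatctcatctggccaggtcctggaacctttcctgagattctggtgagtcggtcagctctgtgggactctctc
Chil3: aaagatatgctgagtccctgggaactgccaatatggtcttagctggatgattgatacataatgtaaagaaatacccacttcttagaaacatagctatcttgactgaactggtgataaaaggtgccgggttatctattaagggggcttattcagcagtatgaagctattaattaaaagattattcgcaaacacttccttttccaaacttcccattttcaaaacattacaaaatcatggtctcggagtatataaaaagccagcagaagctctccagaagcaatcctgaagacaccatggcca
Mrc1: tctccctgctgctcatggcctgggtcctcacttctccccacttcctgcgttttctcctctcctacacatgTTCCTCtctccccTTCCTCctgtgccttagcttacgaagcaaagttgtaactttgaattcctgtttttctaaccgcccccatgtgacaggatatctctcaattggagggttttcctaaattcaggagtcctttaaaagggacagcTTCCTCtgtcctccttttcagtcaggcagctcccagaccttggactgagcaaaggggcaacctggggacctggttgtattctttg
Cd163: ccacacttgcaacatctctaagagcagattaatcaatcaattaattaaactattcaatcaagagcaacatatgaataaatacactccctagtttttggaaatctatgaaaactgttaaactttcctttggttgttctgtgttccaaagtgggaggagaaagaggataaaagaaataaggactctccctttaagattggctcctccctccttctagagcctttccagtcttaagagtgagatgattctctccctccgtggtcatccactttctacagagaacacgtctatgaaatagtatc

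RefSeq sequences were at hand for these 4 genes and Cd68, 5 of the 10 members. Searched on both strands, the spacing preferred by STAT6 (TTCNNNNGAA) occurred in Retnla alone, 145 bases before the start, followed by a C/EBP core (TTGCNNAA) at 134 bases before it with no overlap. The STAT6 spacing was found in 6.95% of 32851 promoters of the same length and the C/EBP core in 10.8%. The PU.1 core (GAGGAA), present in 28.3%, occurred 3 times in Mrc1, 2 times in Cd68 and 1 time in Retnla, while Cd68 also held a C/EBP core. The interferon response core GAAANNGAAA (3.44%) and the NF-kB sequence GGGANTTTCC (0.411%) were found in 0 of the 5, and Chil3 and Cd163 held none of the 5 motifs. A match is a match of letters in this window and not evidence of binding.

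Chil3 lay at 0.40, 0.41 and 0.48 CPM in untreated tumors, 0.60, 1.28 and 5.28 on day 1, 0.52, 2.87 and 1.13 on day 3, 3.15, 2.74 and 0.36 on day 5, and 0.33, 0.72 and 0.42 on day 7. The tumors of days 1 and 3 were all above the untreated ones, by as little as 0.04 CPM. The log2 fold change was 2.46 (SE 0.91, adjusted p = 1.0, edgeR) on day 1, falling to 1.11 without day 1 replicate 3, and 1.80 (SE 0.90, adjusted p = 0.189, edgeR) on day 3, or 0.93 without day 3 replicate 2. Its near-identical paralog Chil4 had at most 1 count in any tumor, though the sharing of reads between the copies was not measured. The summed level of 11 neutrophil markers was 29.6 to 41.7 CPM untreated, 26.8 to 122 on day 1 and 73.8 to 197 on day 3. Most of it was Csf3r, the G-CSF receptor, at 19.2 to 27.0 CPM untreated and 55.8 to 174 on day 3, so the sum says little of the list as a class. At an unadjusted p under 0.05 (edgeR), 1 of 6 neutrophil markers tested was higher on day 3 (18.3% of all genes). All 6 were higher in the fit. Of these, 3 lay wholly above the untreated tumors (19.4% of all genes did). S100a8 went from 1.08 to 2.52 CPM untreated to 3.91 to 4.52, and S100a9 from 1.42 to 4.73 to 6.61 to 9.63. Ly6g, which defines neutrophils, had 0 to 5 counts in every tumor. The highest neutrophil sum, 197 CPM in day 3 replicate 1, went with 0.52 CPM of Chil3. The sum of 122 CPM in day 1 replicate 3 went with 5.28 CPM of Chil3. The part of neutrophils in the Chil3 values was not tested.

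Retnla is given in counts because it was close to the floor in many tumors. The counts were 11, 22 and 7 untreated, 0, 1 and 61 on day 1, 883, 25 and 52 on day 3, 250, 15 and 1 on day 5, and 5, 3 and 0 on day 7. Day 3 replicate 1 thus held more Retnla than the other 14 tumors together, and day 5 replicate 1 most of the rest. Those 2 tumors also ranked first and second in summed adipocyte markers (387 and 67.1 CPM; untreated 22.8 to 49.7) and dendritic cell markers (101 and 71.3 CPM; untreated 19.6 to 23.3). In day 5 replicate 1, Fabp4, a lipid carrier that macrophages also express, gave 50.4 CPM of the adipocyte sum. The part of these markers in the result was not tested. The log2 fold change on day 3 was 4.70 (SE 1.93, adjusted p = 0.142, edgeR) and 1.58 without day 3 replicate 1. On day 5 it was 2.71 (SE 1.81, adjusted p = 0.859, edgeR), and -0.77 without day 5 replicate 1.

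Levels were compared between genes as CPM per kilobase of exon. In the untreated tumors the order was Arg1 (mean 89.5), Cd68 (89.4), Mrc1 (47.2), Csf1r (35.9), Adgre1 (24.8), Siglec1 (8.78), Nos2 (6.66), Cd163 (4.42), Retnla (0.818) and Chil3 (0.264). Neighbours whose 3 tumors overlapped were Arg1 with Cd68, Mrc1 with Csf1r, Siglec1 with Nos2, and Nos2 with Cd163. On day 3 Cd68 led alone (mean 249 CPM per kilobase, lowest tumor 173). It was followed by Adgre1 (93.2), Csf1r (86.1), Arg1 (79.6), Siglec1 (38.8), Mrc1 (36.1), Retnla (21.4), Nos2 (18.4) and Cd163 (6.49), in which every neighbouring pair overlapped. Chil3 (0.923) was lowest, below every Cd163 value.

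Setting each polarization gene against the mean log2 CPM of the 4 identity genes in the same tumor gave a level relative to macrophage RNA in that tumor. These relative levels are described without a test. The mean of the 4 identity genes was itself 6.69 on day 0 and 8.27 on day 3, so a gene of unchanged CPM is lower on this scale. Cd163 was the clearest: its relative level was -2.65 to -1.44 on the log2 scale in the 3 untreated tumors and below that range in all 12 treated tumors, the highest being -2.998. That held with Adgre1 alone as the identity gene. Of the 15494 genes, 97 (0.626%) had all treated tumors below all untreated ones on this scale. The summed level of 7 erythroid markers was 9.6 to 22.1 CPM untreated and 29.0 to 221 on day 7, and day 1 replicate 3 had 124. Day 1 replicates 1 and 2 had 15.4 and 13.7 CPM. Day 3 tumors had 28.7, 10.8 and 10.2 CPM, and day 5 tumors 25.0, 15.4 and 68.7. Whether that bore on Cd163 was not tested.

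The relative level of Mrc1 was under the lowest untreated tumor (0.76) in 10 of 12 treated tumors, with day 3 tightest at -0.58 to -0.47. Arg1 was under its lowest untreated value (0.32) in 9 of 12, although its CPM overlapped the untreated tumors on every day. Nos2 showed no single direction, with 6 treated tumors above and 5 below the untreated range of -1.90 to -1.70. Chil3 was above its untreated range in 7 and below it in 3, and Retnla above in 4 and below in 7. The difference of Nos2 and Arg1 in log2 CPM, in which gene length cancels between tumors, was -3.66 to -2.02 in untreated tumors. It exceeded -2.02 in 8 of 12 treated tumors, including all 3 of day 3 (-1.27 to -0.92). No share over all genes was computed for the counts in this paragraph.

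**Figure D3:**
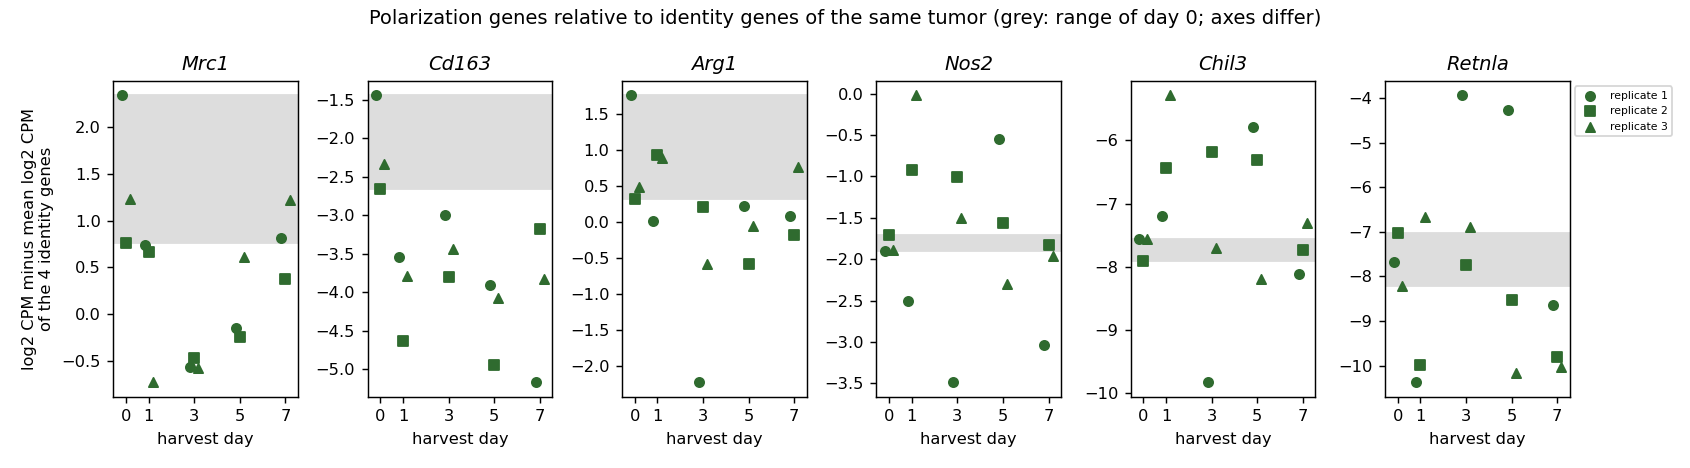
Log2 CPM of 6 polarization genes minus the mean log2 CPM of Adgre1, Csf1r, Cd68 and Siglec1 in the same tumor (vertical axes, scaled separately) against harvest day, with the range of the 3 untreated tumors in grey. All 12 treated tumors lie below the grey band for Cd163 and 10 of 12 for Mrc1, whereas treated tumors lie on both sides of it for Nos2, Chil3 and Retnla.

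The members also grouped by how they varied over the 15 tumors, which share harvest day and the extreme library of day 3, so Pearson's r on log2 CPM is given as a description only. Among the identity genes r was 0.78 (Csf1r with Siglec1) to 0.93 (Adgre1 with Cd68), and 0.57 to 0.89 without day 3 replicate 1. Nos2 and Chil3, assigned to opposite states, had r = 0.91, and 0.93 without that tumor. Retnla had r of 0.88 with Csf1r, 0.87 with Cd68 and 0.39 with Chil3, which became 0.79, 0.78 and 0.64 without that tumor. Mrc1 had r of -0.57 with Chil3 and -0.43 with Nos2, and its r with Siglec1 went from -0.05 to -0.58 when day 3 replicate 1 was left out.

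**Figure D4:**
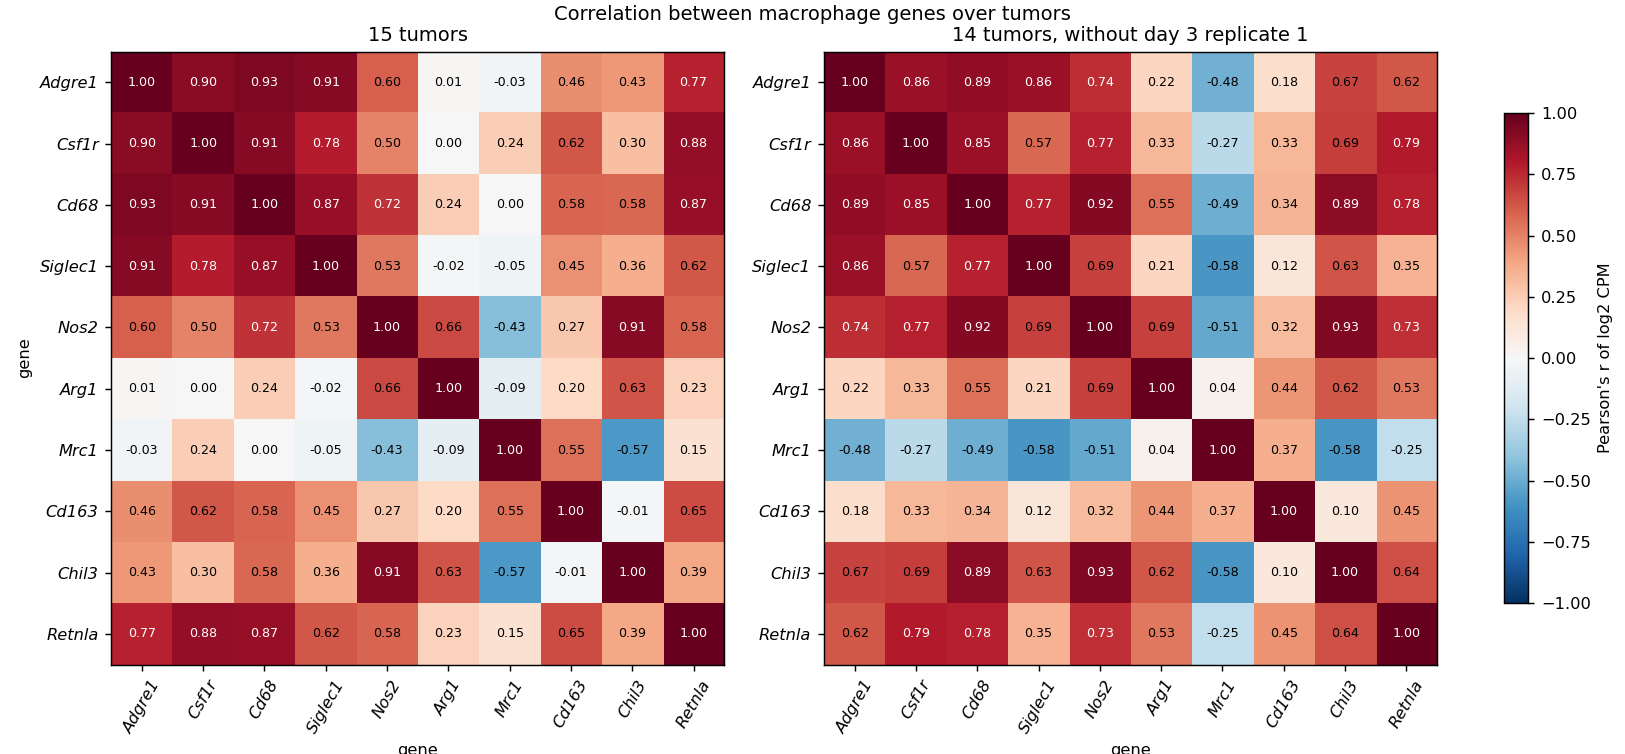
Pearson's r of log2 CPM between each pair of the 10 genes over 15 tumors (left) and over 14 tumors without day 3 replicate 1 (right), on a colour scale from -1 to 1. The identity genes form a red block of 0.78 or more on the left, Nos2 and Chil3 share 0.91, and Mrc1 has 0.55 with Cd163 but 0.24 or less with every other member on the left.

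Over all 15493 other genes, those most like Adgre1 were C1qc (r = 0.986), C1qb (0.985) and BC064078 (0.985). C1qb and C1qc encode chains of complement C1q, which tissue macrophages make. Cd68 was closest to Ctsb (0.995), a lysosomal protease, then to Cndp2 (0.994) and Tmem106a (0.992). Csf1r was nearest to Lrmp (0.988), Naip6 (0.984) and Ptger4 (0.982), a prostaglandin E receptor. For Siglec1 the list was Adam33 (0.949), Htra4 (0.947) and Ehd4 (0.924).

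The genes most like Nos2 were Socs1 (0.957), the feedback inhibitor of cytokine signalling, Batf2 (0.953) and Cd274 (0.950), which encodes PD-L1. Those most like Chil3 were Cxcl10 (0.960), an interferon-induced chemokine, Socs1 again (0.922) and Gm6158 (0.918). Arg1 was most like Il13ra2 (0.886), a decoy receptor for IL-13, then St6galnac4 (0.858) and Mmp13 (0.852). Mrc1 was most like Zbtb1 (0.877), Tmcc1 (0.838) and Ddi2 (0.815). Cd163 had Fry (0.890), the muscle gene Neb (0.882) and Pde1c (0.880), and Retnla had Samsn1 (0.959), Pdgfd (0.958) and Enpep (0.956). Only Adgre1 and Cd68 kept their 3 closest genes without day 3 replicate 1.

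Companion genes of each role were counted for context, and edgeR called 0 of them at an adjusted p of 0.05 in any comparison. On day 3, 17 of 21 other identity genes were higher and 1 lower at an unadjusted p under 0.05 (30% of all genes in either direction), with a median log2 fold change of 1.54. Mertk, a receptor for clearing dead cells, was at 19.7 to 23.7 CPM untreated and 113, 36.2 and 51.6 on day 3. Lyve1, of resident perivascular macrophages, was at 0.81 to 3.16 CPM untreated and reached 30.1 in day 3 replicate 1 only, with 1.07 and 4.67 in the other two. Thus Mertk on day 3 was wholly above the untreated range and Lyve1 was not. Of 7 monocyte markers, 4 were higher and 2 lower on day 3 at that p (18.3% and 11.7% of all genes). By separation, 3 lay wholly above the untreated tumors and 2 wholly below (19.4% and 19% of all genes). The part of monocytes in the member levels was not tested.

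The ligands gave a different picture from the receptor. Csf1 ranged from 170 to 309 CPM over all tumors and had a log2 fold change of -0.08 (SE 0.17) on day 3. Il34 was lower, at 16.4, 16.5 and 25.6 CPM on day 3 against 25.8, 29.0 and 27.6 untreated, a log2 fold change of -0.49 (SE 0.17, adjusted p = 0.115, edgeR). Transcripts of the polarizing cytokines were rare. Csf2 had 5 to 29 counts, Il4 4 to 21 and Il13 0 to 10 in any tumor. Ifng measured 1.65, 2.05 and 2.72 CPM untreated and 5.56, 8.31 and 5.29 on day 3, wholly above, with a log2 fold change of 1.58 (SE 0.72, adjusted p = 0.163, edgeR). Over all genes, 18.3% were higher and 11.7% lower on day 3 at an unadjusted p under 0.05 (edgeR). Over the 11 ligands and regulators 6 were higher and 2 lower. These included the transcription factors Nr1h3 (log2 fold change 2.06, SE 0.61) and Irf8 (1.25, SE 0.42), both wholly above the untreated range.

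Companions of the classical state gave 6 of 15 tested higher and 0 lower on day 3 at that p. Over all genes the shares were 18.3% and 11.7%. The median log2 fold change of the list was 0.91. Irf5 was at 35.0 to 42.9 CPM untreated and 167, 89.5 and 73.6 on day 3. Companions of the alternative state gave 5 of 18 higher and 1 lower, with a median of 0.94, so the medians of these lists differed by little. Pparg, a nuclear receptor of alternative activation and of adipocytes, was at 1.05 to 2.64 CPM untreated and 29.7, 5.18 and 7.28 on day 3. Clec10a, a lectin of macrophages and dendritic cells, went from 4.35 to 11.4 CPM untreated to 170, 11.8 and 20.1 on day 3. For both, day 3 replicate 1 held the highest value of all tumors.

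In arginine and nitric oxide metabolism, 1 of 13 genes was higher and 1 lower on day 3 at an unadjusted p under 0.05 (edgeR). The shares of all genes were 18.3% and 11.7%, and the median log2 fold change of the list was 0.05. The higher one was Arg2, the mitochondrial arginase, at 7.57 to 9.10 CPM untreated and 26.01, 17.5 and 12.7 on day 3 (log2 fold change 1.20, SE 0.54, adjusted p = 0.161, edgeR). The lower one was Ddah2, which degrades inhibitors of nitric oxide synthase, at 41.9 to 48.8 CPM untreated and 25.9 to 30.4 on day 3 (log2 fold change -0.68, SE 0.21, adjusted p = 0.115, edgeR). Nos1, the neuronal and muscle form, was at 0.51 to 0.68 CPM untreated and 3.58 in day 3 replicate 1, with 0.63 and 0.47 CPM in the other two. Of 11 genes that handle haemoglobin and iron, the cargo of CD163, 7 were higher on day 3 at an unadjusted p under 0.05 (edgeR). At that p 0 were lower (18.3% of all genes were higher and 11.7% lower). By direction alone 9 were higher and 2 lower, with a median log2 fold change of 0.92. Slc40a1, the iron exporter ferroportin, was at 2.20 to 2.98 CPM untreated and 37.2, 8.53 and 4.28 on day 3. Blvra, biliverdin reductase, was at 21.6 to 24.8 CPM untreated and 55.5, 35.0 and 35.3 on day 3. The paralog Retnlg had 0 to 44 counts, and day 3 overlapped untreated tumors.

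Of 12 interferon target genes 11 were higher on day 3 at an unadjusted p under 0.05 (edgeR, 18.3% of all genes). The median log2 fold change of the 12 was 1.31. On day 1 the count at that p was 12 (2.18% of all genes) and the median 1.68. Irf7 was at 60.4 to 97.1 CPM untreated, 173 to 815 on day 1 and 359 to 579 on day 3. Oasl2 was at 113 to 150 CPM untreated, 253 to 624 on day 1 and 285 to 430 on day 3. The summed level of the 12 was highest in day 1 replicate 3 (4875 CPM, against 741 to 977 untreated), the tumor that also had the highest Nos2, Arg1 and Chil3. In day 3 replicate 1, highest for the 4 identity genes, Cd163 and Retnla, the sum was 2005 CPM. Whether the interferon response bore on these member levels was not tested.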

How the data were processed

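Poly(A) RNA from 15 tumors was sequenced as 100 base single-end reads. The authors estimated transcript abundance with kallisto, summed it to genes with tximport on mm10, and deposited these estimated counts in whole numbers, which were used without rounding. The transcript set is not given in the sources used here. Kallisto divides reads shared by near-identical copies, so counts of paralogs are uncertain. Groups came from the time point labels, and same-numbered replicates did not deviate together. One date-mangled row was left out.

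The filter of the study was applied, which keeps a gene above 0.366 CPM in 3 or more tumors. One edgeR 4.0.16 quasi-likelihood model with TMM factors was fitted to all 15 tumors in R 4.3.3, with Benjamini-Hochberg adjustment over 15494 genes and a threshold of 0.05. It was tried on simulated data with the same spread for all genes and no extreme tumor. Such data cannot show how the model behaves with an extreme tumor. DESeq2 1.42.0, other scalings and filters, fits of the compared days alone, a replicate block and leaving out each tumor were the alternatives. DESeq2 without day 3 replicate 1 was added after seeing the data. Log2 CPM used a prior count of 2. The floor covers counting error only, whereas the SEs come from the edgeR fit and include the spread between tumors.

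The 10 members and the companion lists were chosen with earlier results of these data known. The named companions were the 2 with the lowest p in the joint test of each list, all ligands, paralogs, and the 3 genes with the highest Pearson's r to each member. One companion so chosen is not reported here. Promoters came from RefSeq.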

Additional observations from a re-analysis of the deposited data

Results flagged for a closer look

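Retnla went opposite ways on days 3 and 7 relative to the untreated tumors. On day 3 all 3 tumors were above every untreated tumor (mean 12.8 CPM, against 0.49 untreated), and on day 7 all 3 were below (mean 0.106 CPM, from 5, 3 and 0 counts). Tested directly, day 7 against day 3 had an unadjusted p of 0.00984 and an adjusted p of 0.0845 with edgeR, which did not pass, while DESeq2 gave an adjusted p of 0.013 with all tumors and none without day 3 replicate 1. The untreated counts were 7 to 22, and the day 3 mean rests on replicate 1 with 883 counts, against 25 and 52 in the other two. That tumor also had the highest summed skeletal muscle and adipocyte markers (3189 and 387 CPM). Day 5 replicate 1, with 250 Retnla counts, had 3.44 and 67.1 CPM of them. The part of these markers in the Retnla values was not tested.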

How the results depend on the processing

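Of 50 fold changes of members, 35 kept their direction when each tumor was left out in turn. The 15 that did not had log2 ranges, lowest to highest, of -0.033 to 0.68 for Adgre1, -0.18 to 0.16 for Csf1r, -0.10 to 0.81 for Cd68, -0.30 to 0.70 for Arg1 and -4.42 to 1.05 for Retnla on day 1. On day 3 they were -0.49 to 0.28 for Arg1, -0.90 to 0.053 for Mrc1 and -0.34 to 0.92 for Cd163, and on day 5 -0.55 to 0.14 for Arg1 and -0.77 to 3.29 for Retnla. On day 7 they were -0.37 to 0.21 for Csf1r, -0.30 to 0.17 for Cd68, -0.82 to 0.21 for Nos2 and -0.21 to 0.40 for Chil3, and from day 3 to day 7 -0.42 to 0.32 for Mrc1. None of these fold changes had passed the test. The median member fold change on day 1, 0.46, became -0.14 without day 1 replicate 3. Other reversals were Csf1r on day 1 (-0.017 with library totals alone), Cd68 on day 7 (0.0097 with only the tumors of those days) and, with DESeq2 without day 3 replicate 1, Arg1 (0.056) and Cd163 (-0.34) on day 3 and Mrc1 (0.32) from day 3 to day 7. The causes of these and the following changes were not tested.

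With all 15 tumors edgeR called 0 members under every scaling and filter tried. Leaving out 1 tumor at a time gave 0 to 1 on day 3 (Siglec1, adjusted p = 0.0332, without day 1 replicate 3) and 0 to 4 from day 3 to day 7 (the identity genes, adjusted p = 0.0493 to 0.0499, without day 3 replicate 3). DESeq2 called 4 on day 3, 6 from day 3 to day 7 and 4 in the joint test of days 1, 3, 5 and 7. Without day 3 replicate 1 it called 1, 1 and 1, Siglec1 each time (adjusted p = 0.00116, 0.0436 and 0.0032). The replicate block left all counts of calls at 0. Of 30 same-numbered pairs, 9 had deviations with r over 0.1 (range -0.619 to 0.511), and 4 of 15 tumors correlated best with their own number, so the numbers do not pair the tumors. Depth limits Retnla and Chil3, which had fewer than 30 counts in many tumors.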
